A study of Mus musculus with 20 samples.

Results

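The genes described here are 7 genes of the corticosteroid pathway in the mouse utricle, the vestibular organ of the inner ear whose sensory epithelium carries the otoconial layer. They were taken by name, with no threshold on a measured value, from the 25655 genes listed in the deposited tables. *Nr3c1* encodes the glucocorticoid receptor and *Nr3c2* the mineralocorticoid receptor. *Hsd11b1* encodes an enzyme that regenerates active glucocorticoid inside cells. *Fkbp5*, *Tsc22d3*, *Sgk1* and *Zbtb16* are genes that glucocorticoids induce in many tissues. All 7 had counts, and all 7 passed the filter on low counts in every comparison.

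RNA of the utricle was sequenced from C57BL/6J female mice that were ovariectomized (OVX) or sham-operated at 8 weeks of age, and the utricles were taken 4 weeks after the operation. Each of the 4 groups had 5 libraries. The sham + vehicle (sham + v) group kept its ovaries and received a vehicle pellet, and the OVX + vehicle (OVX + v) group was ovariectomized and received the same pellet. The OVX + estradiol (OVX + E2) group was ovariectomized and received a pellet of 50 µg estradiol for 60 days. The OVX + raloxifene (OVX + RAL) group was ovariectomized and received a pellet of 2.4 mg raloxifene, a selective estrogen receptor modulator, for 60 days. All mice thus had an operation and a pellet, and only the sham + v group had ovaries. Whether a library came from 1 mouse or from pooled mice was not given in the sources used here. The libraries are the units of the tests, and the spread between them may be technical in part.

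Glucocorticoids diffuse into cells and bind the glucocorticoid receptor, which waits in the cytoplasm in a complex with Hsp90 and its co-chaperones. The bound receptor moves to the nucleus and acts on genes near response elements, short palindromes built from a pair of inverted half-sites. *Fkbp5* encodes a co-chaperone that lowers the affinity of the receptor for hormone, and its induction closes a feedback loop. In the inner ear, the mineralocorticoid receptor and *Sgk1*, a kinase that sustains sodium channels at the membrane, are known for their part in the ion balance of the endolymph, and glucocorticoids are used as a treatment of inner ear disease.

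The counts per library ranged from 1123053 to 2081747 over the 20 libraries and were lowest in the OVX + E2 group, at 1123053 to 1507667. A total of 3 counts, taken here as detected, corresponds to 1.44 to 2.67 CPM, the count of a gene scaled to the total count of its library. The kit reads the 3′ end of each transcript, so levels of different genes are compared per transcript end, without correction for length. The labelled tissue was checked with marker genes. All 6 hair cell markers had counts, with a sum of 317 to 1021 CPM in a library, as did all 6 supporting cell markers, with 1151 to 4429 CPM, and all 3 markers of otoconia-related cells, with 1190 to 2480 CPM. Markers of neighbouring tissue were also present. The 6 fibroblast markers summed to 566 to 1839 CPM and the 4 Schwann cell markers to 1553 to 4019 CPM. The one respiratory mucosa marker with counts, of 3, ranged from 0 to 1738 CPM, while *Scgb1a1* and *Muc5b* were at 0. The 4 red cell markers summed to 363 to 3837 CPM and the 4 skeletal muscle markers to 0 to 279 CPM. The 3 neutrophil markers summed to 0 to 105 CPM in the sham + v group, 0 to 114 CPM in the OVX + v group and 0 to 31.4 CPM in the OVX + RAL group, and were at 0 in every OVX + E2 library. Their part in the values of the 7 genes was not tested. In whole utricles, fewer cells of a type and less RNA per cell cannot be told apart.

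The receptor's binding palindrome was looked for in the 2000 bases before each protein-coding transcript start, as GNACA and TGTNC with 3 bases of any kind between them (N is any base), a pattern that is its own reverse complement, so a match holds for both strands. It was found for 2 of the 7 genes, *Fkbp5* and *Sgk1*, and for 1202 of 21575 protein-coding genes (5.57%). The 7 genes have 6 to 14 searched starts each, against a median of 2 per gene, so more sequence was searched for them. The matches are shown because they are the receptor-type palindromes nearest to starts of the target genes measured here. Each lies outside annotated exons and is printed 5′ to 3′ on the strand of its gene in GRCm39, with the matched palindrome in capitals. The *Sgk1* match lies at chr10:21869587-21869627, 176 bases before the nearest start and 952 before the canonical start. The first *Fkbp5* match lies at chr17:28661380-28661420, 688 bases before the nearest start and 43758 bases after the canonical start. Its other two lie at chr17:28737140-28737180 and chr17:28737992-28738032, 68 and 485 bases before the nearest start, and 32002 and 32854 bases before the canonical start. Transcript starts are those of GENCODE, whose outermost *Fkbp5* starts lie beyond the end of the gene in the deposited table, so the second match falls in an intron of its longest transcripts. The gene positions given further on are those of the deposited table.
*Sgk1*, plus strand: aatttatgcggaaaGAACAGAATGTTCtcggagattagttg
*Fkbp5*, first match, minus strand: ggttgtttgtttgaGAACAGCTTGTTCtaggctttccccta
*Fkbp5*, second match, minus strand: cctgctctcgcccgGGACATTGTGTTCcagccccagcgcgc
*Fkbp5*, last match, minus strand: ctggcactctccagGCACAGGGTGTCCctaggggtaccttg
A match describes the letters only, and binding was not measured. No match in the other 5 genes says only that these letters are not in the windows searched.

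At an adjusted p of 0.05, none of the 7 genes differed between the groups. Levels varied widely within single groups, up to a range of 0 to 322 CPM for *Tsc22d3* in the OVX + E2 group. With the 4 group means of a gene put in order, all 21 pairs of neighbours overlapped in range and differed by less than the larger SD of the pair. Neighbours have the smallest gaps between means, so this does not cover groups farther apart, and the share over all genes was not taken. For sham + v against OVX + v, 0.0145% of 13825 genes tested (2 genes) passed the threshold in the quasi-likelihood test of edgeR, with p adjusted by the Benjamini-Hochberg method. The share was 0.0584% of 13695 genes for the OVX + E2 group and 0.0286% of 14002 genes for the OVX + RAL group, each against OVX + v. For OVX + E2 against OVX + RAL it was 0.0727% of 13753 genes, and in the test of any difference among the 4 groups 0.141% of 14870 genes. At an unadjusted p of 0.05, 0 of the 7 genes passed in these 5 tests, against 12.5%, 13.9%, 12.1%, 14.1% and 16.3% of all genes tested. These shares depend on the filter and the tool. With the default filter of edgeR, 148 of 8956, 149 of 8354, 171 of 9357, 151 of 8429 and 335 of 11109 genes passed an unadjusted p of 0.05 in the same order, and with DESeq2 685 of 13825, 718 of 13695, 707 of 14002, 776 of 13753 and 419 of 14870, while 0 of the 7 genes passed with either. DESeq2 and limma also called 0 of the 7 at an adjusted p of 0.05. At an unadjusted p of 0.05, limma on log2(CPM + 1) passed 1 gene in 2 of them. These were *Tsc22d3* for sham + v against OVX + v (log2 fold change 1.57, unadjusted p = 0.0212, adjusted p = 0.921, limma) and *Sgk1* for OVX + E2 against OVX + RAL (-2.46, unadjusted p = 0.0457, adjusted p = 0.823, limma), beside 591 of 13825 and 782 of 13753 genes tested. Among so few genes, a count of 0 of 7 by edgeR says nothing particular about the 7 genes. The ranges of 2 compared groups overlapped for each of the 7 genes in each of the 4 paired comparisons. Of all genes tested, 0.499%, 0.832%, 0.578% and 0.909% had groups that did not overlap in these comparisons, in the same order.

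**Figure D1:**
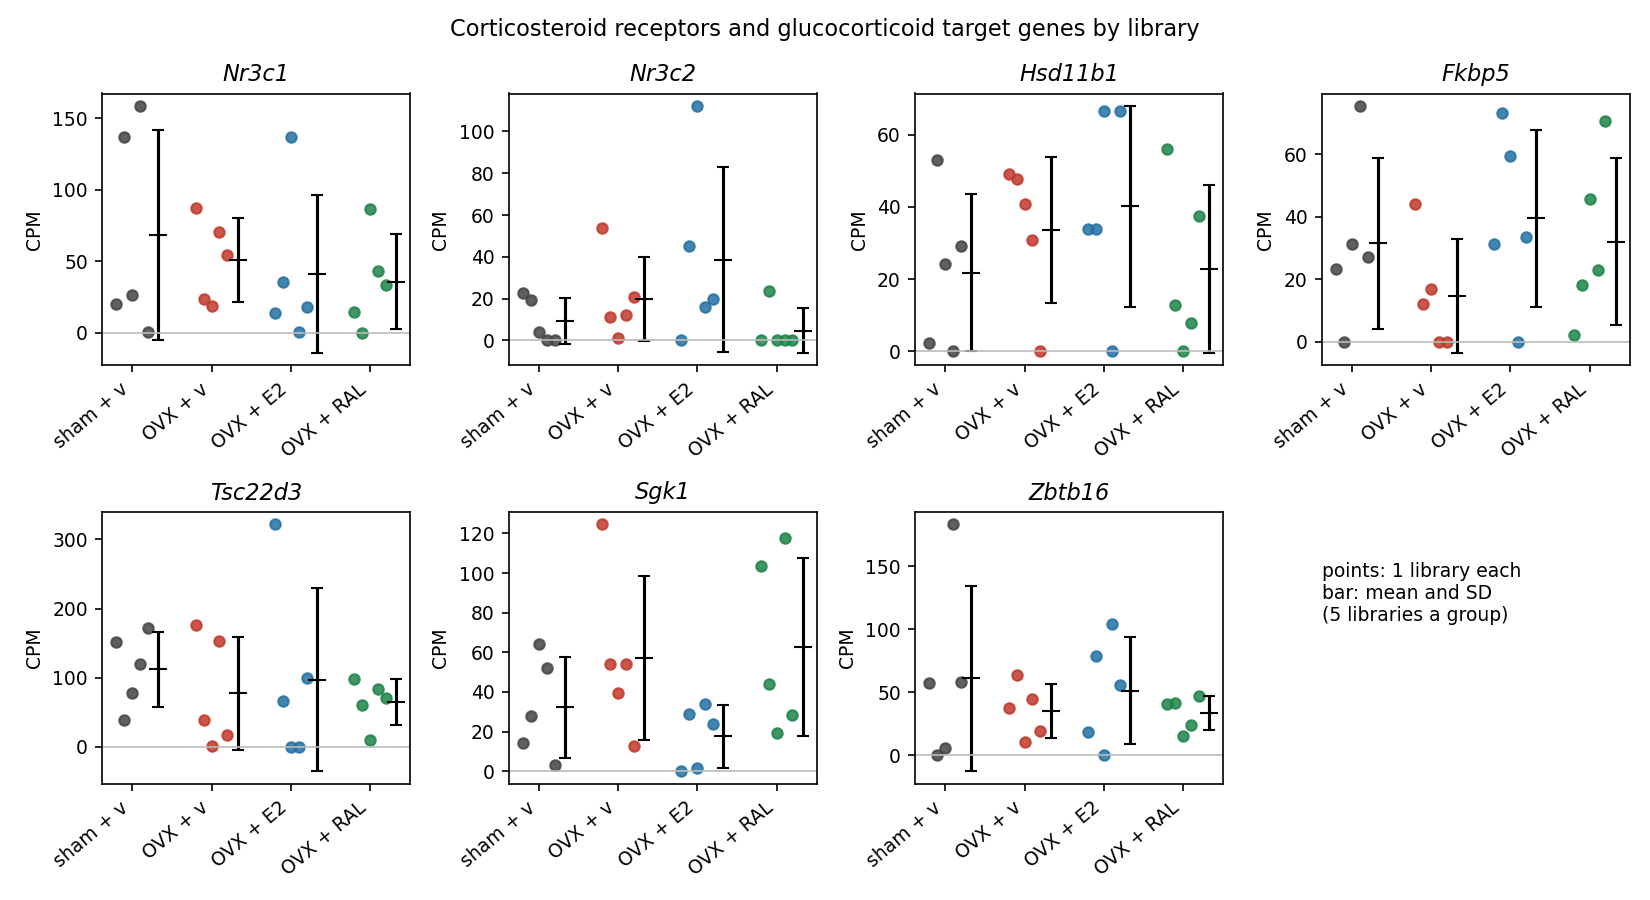
Level of each of the 7 genes in CPM (vertical axes, each with its own scale) in the 20 libraries, by group. Each point is 1 library, and the bar beside the points is the mean with its SD (n = 5). For each gene the 4 groups overlap, and points at or near 0 stand beside high points of the same group, as for *Nr3c1* in the sham + v group (0.663 and 159 CPM).

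The glucocorticoid receptor gene *Nr3c1* was counted in 19 of 20 libraries, at a mean of 49.1 CPM. It lies on chromosome 18 from 39543598 to 39652474 on the minus strand (GRCm39), with 9 exons in its canonical transcript. Its last 1000 bases, the end that a 3′ kit reads, overlap an exon of the antisense lncRNA *Gm58395*, and the study's methods give default settings for the mapping without naming the strand setting. The last 1000 bases of the other 6 genes overlap no exon of another gene. It had 19.97, 137, 26.7, 159 and 0.663 CPM in the sham + v libraries. In the OVX + v libraries it had 87.2, 23.8, 18.7, 70.8 and 54.3 CPM. The range of the sham + v group enclosed the whole OVX + v group, from 1 count in replicate 5 to 284 counts in replicate 4. *Nr3c1* had 13.9, 35.5, 137, 0.890 and 18.2 CPM in the OVX + E2 libraries, and 14.9, 0, 86.9, 43.5 and 33.6 CPM in the OVX + RAL libraries. The value of 137 CPM stood apart from the other 4 OVX + E2 libraries, of which the highest had 35.5 CPM.

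The means of *Nr3c1* were 68.6 ± 73.4, 51.0 ± 29.6, 41.1 ± 55.0 and 35.8 ± 33.2 CPM (SD, n = 5) in the sham + v, the OVX + v, the OVX + E2 and the OVX + RAL groups, an order that is kept for the means of the other genes. *Nr3c1* had a log2 fold change of 0.43 in the sham + v group against the OVX + v group (SE 0.771, 95% interval -1.08 to 1.94). It was -0.31 in the OVX + E2 group (SE 1.14, -2.54 to 1.92) and -0.51 for OVX + RAL (SE 0.853, -2.19 to 1.17). The adjusted p was 0.9998, 0.9997 and 0.9999 (edgeR). The direction for the sham + v group turned with limma on log2(CPM + 1), at -0.60, and without replicate 4, at -0.14.

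*Nr3c2*, the mineralocorticoid receptor gene, was the lowest of the 7 genes, at a mean of 18.1 CPM, and 7 of 20 libraries had no count of it. It lies on chromosome 8 from 77626070 to 77971641 on the plus strand, also with 9 exons. It had 22.9, 19.4, 4.15, 0 and 0 CPM in the sham + v libraries and 53.6, 11.3, 1.13, 12.4 and 20.9 CPM in the OVX + v libraries. All 5 OVX + v libraries had counts of *Nr3c2*, but replicate 8 had only 2. In the OVX + E2 libraries it had 0, 45.3, 112, 16.03 and 19.6 CPM. Among the OVX + RAL libraries it had 23.7 CPM in replicate 17, from 44 counts, and 0 in each of the other 4. A count of 0 allows up to 1.44 to 2.67 CPM, by library, and this floor covers counting error only.

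The group means of *Nr3c2* were 9.29 ± 11.03, 19.9 ± 20.1, 38.6 ± 44.2 and 4.74 ± 10.6 CPM (SD, n = 5) in the same order of groups. *Nr3c2* had a log2 fold change of -1.09 in the sham + v group (SE 1.96, -4.92 to 2.74), 0.96 in the OVX + E2 group (SE 1.53, -2.03 to 3.95) and -2.05 for OVX + RAL (SE 1.999, -5.99 to 1.88), each against the OVX + v group. Adjusted p was 0.9998, 0.9997 and 0.9999 (edgeR). Single libraries decided the size of these values. Without OVX + v replicate 6, the fold changes were -0.29 for sham + v, 1.75 for OVX + E2 and -1.26 for OVX + RAL, and without OVX + E2 replicate 13 that of OVX + E2 was 0.028. With 1 library left out at a time, the sham + v value ranged from -1.74 to -0.29. Without replicate 17, the OVX + RAL group held no count of *Nr3c2*, and the gene passed the filter only through the OVX + v group. The outcome of that fit was set by the choice of library, and it was not read as a difference. With all libraries, the unadjusted p for OVX + RAL was 0.306 (edgeR).

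*Hsd11b1*, the enzyme gene, had a mean of 29.6 CPM and no count in 4 libraries, 1 of each group. It lies on chromosome 1 from 192903942 to 192946383 on the minus strand, with 6 exons. It had 2.44, 53.0, 24.3, 0 and 29.2 CPM in the sham + v libraries and 49.2, 47.7, 40.8, 30.7 and 0 CPM in the OVX + v libraries. Of the OVX + v libraries, 4 lay close together, at 62 to 79 counts, and the fifth had none. In the OVX + E2 libraries it had 33.8, 34.0, 66.5, 0 and 66.6 CPM, and in the OVX + RAL libraries 56.1, 12.9, 0, 7.87 and 37.5 CPM. The groups overlapped throughout. *Hsd11b1* had means of 21.8 ± 21.7, 33.7 ± 20.2, 40.2 ± 27.8 and 22.9 ± 23.2 CPM (SD, n = 5). *Hsd11b1* had log2 fold changes of -0.63 (SE 1.33, -3.23 to 1.98), 0.25 (SE 1.31, -2.32 to 2.83) and -0.56 (SE 1.15, -2.82 to 1.70) in the sham + v, the OVX + E2 and the OVX + RAL groups against the OVX + v group. Their adjusted p was 0.9998, 0.9997 and 0.9999 (edgeR).

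Among the target genes, *Fkbp5* had its lowest mean in the OVX + v group. The gene lies on chromosome 17 from 28618068 to 28736501 on the minus strand, with 11 exons. It had 44.2, 11.9, 17.01, 0 and 0 CPM in the OVX + v libraries, and 23.4, 0, 31.4, 75.5 and 27.2 CPM in the sham + v libraries. In the sham + v group 4 of 5 libraries were above the OVX + v median, and the one with no count was not. *Fkbp5* had 31.2, 73.3, 59.3, 0 and 33.7 CPM in the OVX + E2 libraries and 2.06, 18.3, 45.8, 23.1 and 70.6 CPM in the OVX + RAL libraries. In each of these groups, too, 4 of 5 libraries lay above the OVX + v median and 1 below it. These tallies share the same OVX + v libraries and are not independent of each other.

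The means of *Fkbp5* were 31.5 ± 27.4, 14.6 ± 18.1, 39.5 ± 28.3 and 32.0 ± 26.7 CPM (SD, n = 5). *Fkbp5* had a log2 fold change of 1.10 in the sham + v group (SE 1.51, 95% interval -1.85 to 4.06), 1.43 in the OVX + E2 group (SE 1.61, -1.73 to 4.59) and 1.12 for OVX + RAL (SE 1.33, -1.49 to 3.73). The adjusted p was 0.9998, 0.9997 and 0.9999 (edgeR). With 1 library left out at a time, the fold changes ranged from 0.48 to 2.11, from 1.08 to 2.44 and from 0.61 to 2.13, respectively.

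*Tsc22d3*, which encodes the glucocorticoid-induced leucine zipper GILZ, an anti-inflammatory factor, had the highest mean of the 7 genes, 87.9 CPM. It lies on chromosome X from 139440277 to 139501408 on the minus strand, with 3 exons. It had 152, 38.3, 78.2, 120.2 and 172 CPM in the sham + v libraries. The OVX + v libraries had 176, 38.9, 1.13, 153 and 17.4 CPM. *Tsc22d3* was thus counted in all 10 libraries, with 2 counts in OVX + v replicate 8 and 309 in replicate 9. The OVX + E2 libraries had 322, 65.7, 0, 0 and 98.9 CPM, and the OVX + RAL libraries 97.7, 60.3, 10.6, 83.9 and 71.1 CPM. The OVX + E2 group held both the highest value, 485 counts in replicate 11, and the only counts of 0.

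The means of *Tsc22d3* were 112 ± 54.3, 77.4 ± 81.2, 97.3 ± 133 and 64.7 ± 33.4 CPM (SD, n = 5). *Tsc22d3* had a log2 fold change of 0.53 in the sham + v group (SE 0.567, -0.58 to 1.64), 0.33 in the OVX + E2 group (SE 0.731, -1.10 to 1.76) and -0.26 for OVX + RAL (SE 0.622, -1.48 to 0.97). Adjusted p was 0.9998, 0.9997 and 0.9999 (edgeR). In these 3 comparisons the intervals by edgeR were the narrowest of the 7 genes, but for OVX + E2 the SE of *Tsc22d3* was 1.13 with the default filter, 1.34 with robust dispersion and 1.72 with DESeq2, the largest of the 7 genes by that tool. The direction in the OVX + E2 group turned to -0.86 with limma on log2(CPM + 1), and that in the OVX + RAL group to 0.66.

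*Sgk1*, the serum- and glucocorticoid-regulated kinase gene, lies on chromosome 10 from 21758083 to 21875802 on the plus strand, with 12 exons. It had 124.6, 54.0, 39.7, 54.0 and 12.5 CPM in the OVX + v libraries and 0, 28.7, 1.60, 33.8 and 23.8 CPM in the OVX + E2 libraries. None of the 5 OVX + E2 libraries reached the OVX + v median of 54.0 CPM, but OVX + v replicate 10 lay below 3 of them. In the sham + v libraries *Sgk1* had 14.1, 27.8, 64.0, 52.0 and 3.32 CPM, and in the OVX + RAL libraries 103, 44.2, 19.4, 118 and 28.3 CPM. The OVX + RAL group had 2 libraries over 100 CPM and 2 within the range of the OVX + E2 group.

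The means of *Sgk1* were 32.3 ± 25.4, 56.9 ± 41.4, 17.6 ± 15.7 and 62.6 ± 44.9 CPM (SD, n = 5). *Sgk1* had a log2 fold change of -1.69 in the OVX + E2 group against the OVX + v group (SE 1.34, 95% interval -4.32 to 0.94), with an adjusted p of 0.893 (edgeR). It ranged from -2.07 to -1.18 with 1 library left out at a time. *Sgk1* had a log2 fold change of -0.82 in the sham + v group (SE 0.957, -2.69 to 1.06) and 0.14 in the OVX + RAL group (SE 0.674, -1.19 to 1.46), with adjusted p of 0.9998 and 0.9999 (edgeR). In the test of any difference among the 4 groups, *Sgk1* had an F value of 1.06 (adjusted p = 0.987, edgeR) and *Nr3c2* of 1.01 (adjusted p = 0.9999, edgeR), the largest of the 7 genes. With 1 library left out at a time, F ranged from 0.73 to 1.34 for *Sgk1* and from 0.42 to 3.71 for *Nr3c2*, so that their order rests on single libraries. The value of 3.71 was reached without replicate 17, the only OVX + RAL library with counts of *Nr3c2*. The choice of that library set the group to 0, so no p is read from that fit.

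*Zbtb16*, which encodes the zinc finger repressor PLZF, lies on chromosome 9 from 48565597 to 48747522 on the minus strand, with 7 exons. It had 57.0, 0, 5.93, 183 and 58.4 CPM in the sham + v libraries and 37.4, 64.0, 10.2, 44.6 and 18.8 CPM in the OVX + v libraries. Its sham + v values ran from 0 to 328 counts and enclosed those of the OVX + v group. *Zbtb16* had 18.6, 78.5, 0, 104 and 55.4 CPM in the OVX + E2 libraries and 40.6, 41.5, 15.3, 23.6 and 47.1 CPM in the OVX + RAL libraries. The OVX + RAL group was the most even of the 4, and its range fell within that of the OVX + v group. *Zbtb16* had means of 60.9 ± 73.8, 34.99 ± 21.3, 51.3 ± 42.6 and 33.6 ± 13.5 CPM (SD, n = 5). *Zbtb16* had log2 fold changes of 0.80 (SE 0.910, -0.98 to 2.58), 0.55 (SE 1.19, -1.78 to 2.88) and -0.06 (SE 0.983, -1.99 to 1.88) in the sham + v, the OVX + E2 and the OVX + RAL groups against the OVX + v group. Their adjusted p was 0.9998, 0.9997 and 0.9999 (edgeR). With limma on log2(CPM + 1) all 3 directions turned, to -0.50, -0.29 and 0.09.

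**Figure D2:**
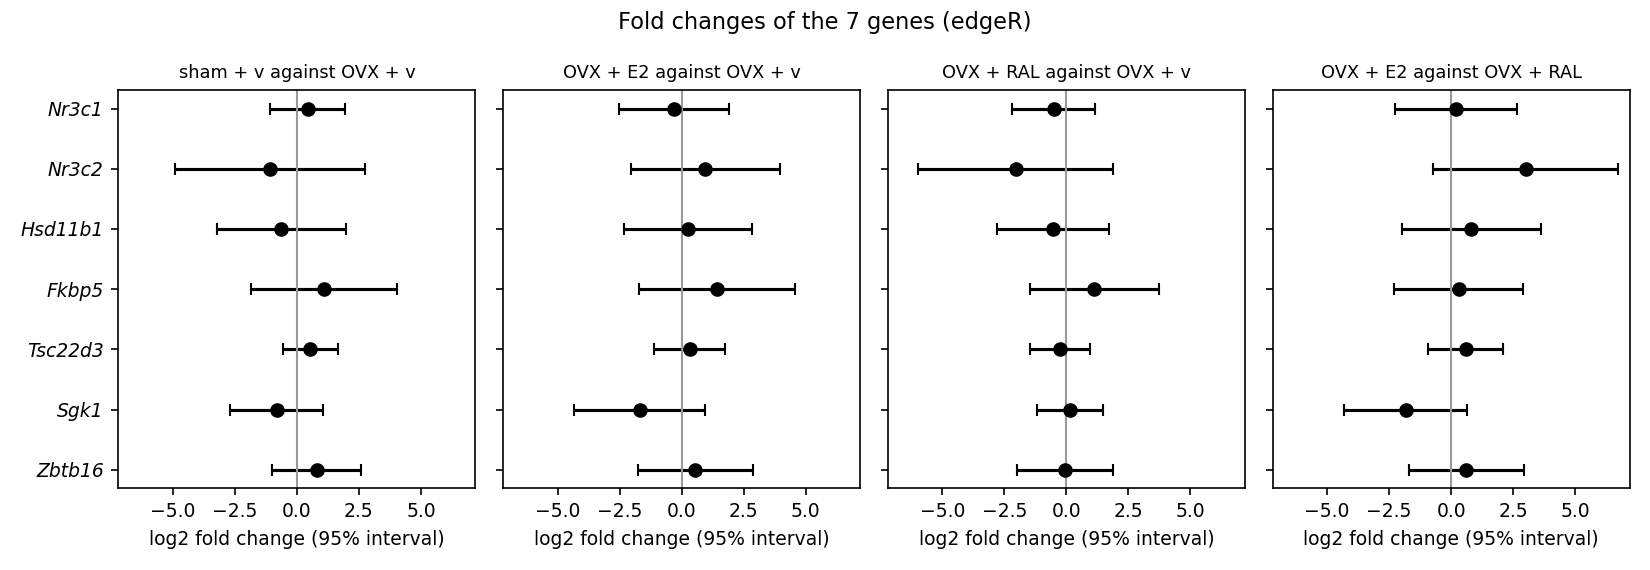
Log2 fold changes of the 7 genes by edgeR (horizontal axes) in the 4 paired comparisons, first-named group against the second (n = 5 each). Points are estimates and bars 95% intervals, and every bar crosses 0. The bars of *Nr3c2* are the widest of the 7 genes in 3 of the 4 comparisons, and that of *Fkbp5* is the widest for OVX + E2 against OVX + v.

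The OVX + E2 and OVX + RAL groups, both ovariectomized and given different drugs at different doses, were also compared with each other. The larger mean was that of OVX + E2 for 6 of the 7 genes, and that of OVX + RAL for *Sgk1*. Of all genes tested, 49.5% had a log2 fold change above 0. The count depends on the scale, as *Tsc22d3* and *Zbtb16* turned to -1.53 and -0.38 with limma on log2(CPM + 1). *Nr3c2* had the largest log2 fold change, 3.01 (SE 1.90, 95% interval -0.72 to 6.73, adjusted p = 0.626, edgeR). It was 38.6 ± 44.2 CPM with E2 and 4.74 ± 10.6 CPM with RAL (SD, n = 5), and the only OVX + RAL library with counts lay above 3 of the 5 OVX + E2 libraries. Without OVX + E2 replicate 13, the log2 fold change of *Nr3c2* was 2.08 (adjusted p = 0.999, edgeR). Without replicate 17, the only OVX + RAL library with counts, *Nr3c2* passed the filter only through the OVX + E2 group. The outcome of that fit was set by the choice of library, and it was not read as a difference. With all libraries, the unadjusted p of *Nr3c2* was 0.113 (edgeR). *Sgk1* was 17.6 ± 15.7 CPM with E2 and 62.6 ± 44.9 CPM with RAL (SD, n = 5), a log2 fold change of -1.83 (SE 1.26, -4.30 to 0.65, adjusted p = 0.742, edgeR). All 5 OVX + E2 libraries were below the OVX + RAL median of *Sgk1*, 44.2 CPM. The other 5 genes had log2 fold changes of 0.20 to 0.81. With 1 library left out at a time, those of *Hsd11b1* and *Zbtb16* ranged from 0.49 to 1.46 and from 0.18 to 0.93. Those of *Nr3c1*, *Tsc22d3* and *Fkbp5* did not keep their direction, with ranges of -1.06 to 0.83, -0.65 to 0.91 and -0.0424 to 0.82. Each of the 7 intervals includes a change of 2-fold in at least 1 direction, so the comparison does not show that E2 and RAL act alike on these genes.

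The spread between the libraries of a group was far above counting error for all 7 genes. The coefficient of variation within groups was 104% for *Nr3c1*, 140.5% for *Nr3c2*, 79.0% for *Hsd11b1*, 86.6% for *Fkbp5*, 95.6% for *Tsc22d3*, 80.3% for *Sgk1* and 98.2% for *Zbtb16*. Counting alone, at their mean counts, would give 8.15% for *Tsc22d3* to 19.2% for *Nr3c2*. The variance of the counts within groups was 33.5 times the mean for *Hsd11b1*, the lowest of the 7 genes, and 131 times for *Tsc22d3*, the highest. Of the 140 values of 7 genes in 20 libraries, 21 were 0 and 26 were under 3 counts. Only 6 libraries had at least 3 counts of all 7 genes, 2 each of the sham + v, the OVX + v and the OVX + E2 groups. The zeros numbered 5, 3, 7 and 6 of 35 values in the sham + v, the OVX + v, the OVX + E2 and the OVX + RAL groups. Over all genes, a library of the OVX + E2 group had counts of 7427 to 9680 genes, against 8651 to 10625 in the sham + v, 10004 to 10694 in the OVX + v and 10103 to 10290 in the OVX + RAL groups. Replicate 14 of the OVX + E2 group, the library with the lowest total count and the lowest number of genes of all 20, had 3 of 7 at 3 counts or more, and *Hsd11b1*, *Fkbp5* and *Tsc22d3* at 0.

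Wide spread was common among genes in the range of the 7 genes, but *Nr3c2* lay above the upper quartile of that range. Over the 5588 genes whose mean lay in the range of the 7 genes, the median coefficient of variation was 86.2% (quartiles 69.9% and 105%), with a median of 3 libraries under 3 counts. The range is broad for this measure, as the trend of the biological coefficient of variation fitted by edgeR was 1.84 at the level of *Nr3c2* and 0.80 at that of *Tsc22d3*. The 742 genes over 200 CPM had a median of 30.9%. The libraries started from 1 ng of RNA, and the study's methods do not mention molecular identifiers. The part of the starting amount in the spread was not tested. edgeR took the dispersion of each of the 7 genes from the trend over genes of like level. The SEs, intervals and p-values by edgeR above thus rest on that trend.

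**Figure D3:**
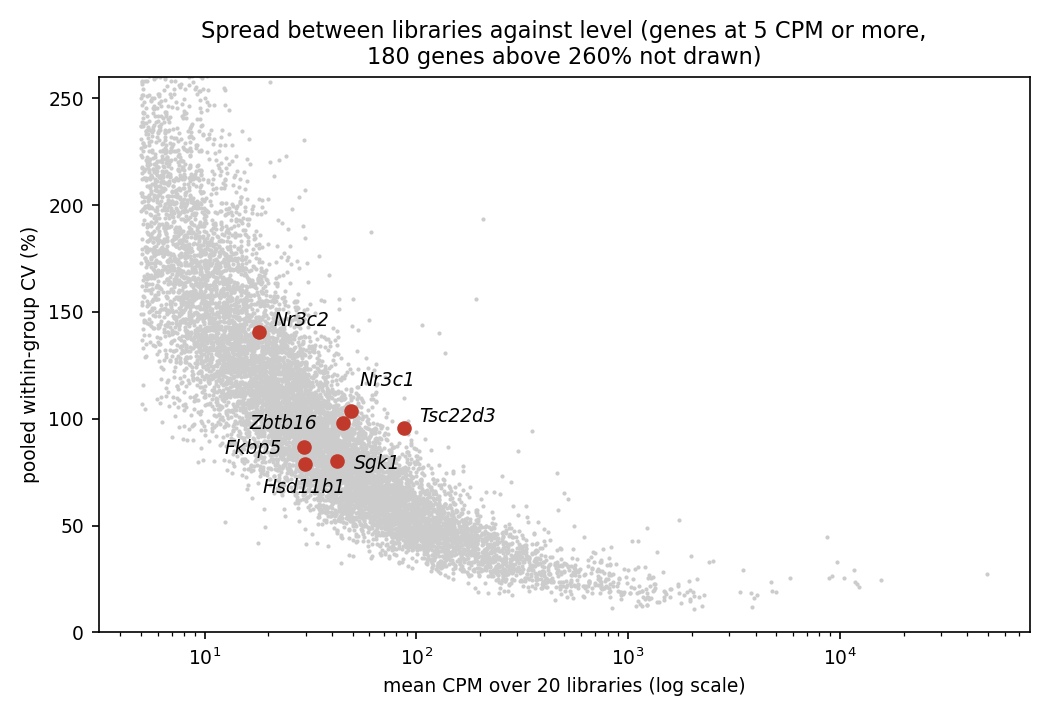
Pooled coefficient of variation within groups (vertical axis, percent) against mean level over 20 libraries (horizontal axis, CPM, log scale) for genes at 5 CPM or more. Grey points are all genes and red points the 7 genes, which sit within the cloud of genes of like level, with *Tsc22d3* near its upper edge (95.6% at 87.9 CPM).

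Receptors and targets were compared from library to library on log2(CPM + 1), over 21 pairs of the 7 genes and 20 libraries. Pearson's r ranged from -0.39 to 0.38 with a median of 0.093, and 13 pairs were positive and 8 negative. No pair passed an unadjusted p of 0.05 in the permutation test with 100000 pairings, two-sided, and the lowest adjusted p over the 21 pairs was 0.861. *Tsc22d3* and *Zbtb16*, both targets, had the highest r, 0.38 (permutation p = 0.0871), with Spearman's rho of 0.27 (permutation p = 0.246) and r of 0.38 without the 2 libraries farthest from the median of *Tsc22d3* (permutation p = 0.119). *Nr3c1* and *Zbtb16* had the lowest r, -0.39 (permutation p = 0.0868), with rho of -0.28 (permutation p = 0.230) and r of -0.40 without the 2 farthest libraries (permutation p = 0.104). Within groups, as deviations from the group means, *Tsc22d3* and *Zbtb16* had r of 0.43 (permutation p = 0.0843, adjusted p = 0.993). None of the 4 pairs of *Nr3c1* with a target gene passed the test in these libraries.

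**Figure D4:**
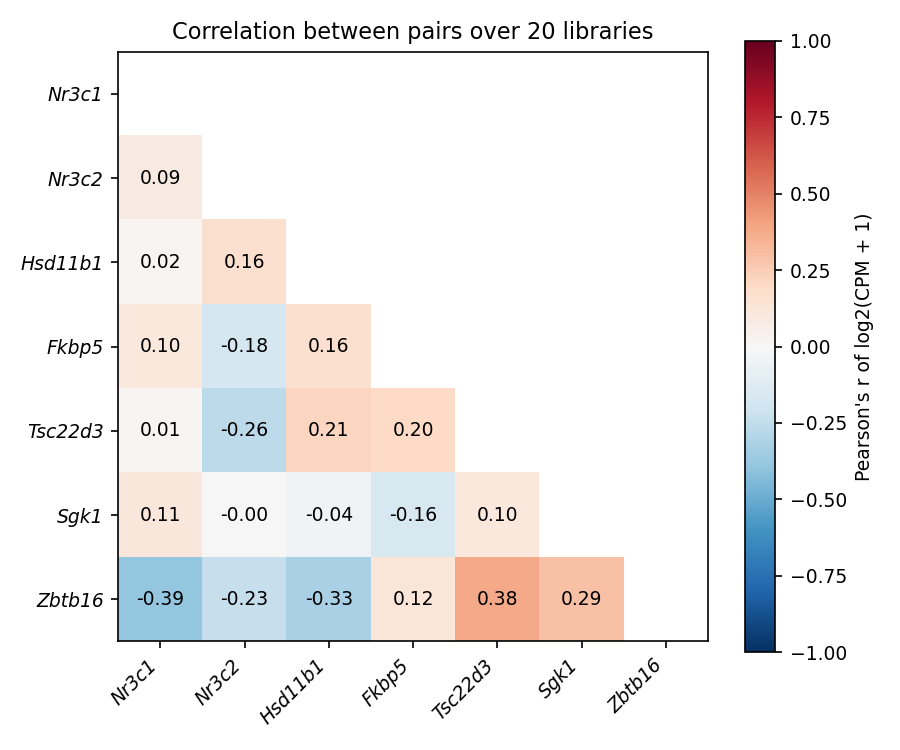
Pearson's r between the 7 genes on log2(CPM + 1) over 20 libraries, 1 cell per pair, with red for positive and blue for negative values. The cells range from -0.39 to 0.38, and no pair passed the permutation test.

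For each gene, the 3 genes with the highest r over the 20 libraries were taken from 9532 genes at 10 CPM or more, a search over many genes that by itself gives high values, and r is a description here. *Nr3c1* was most like *Ephb1* (r 0.79, rho 0.54), *Trappc1* (0.76, 0.48) and *Tcea3* (0.76, 0.63). *Nr3c2* was most like *Tubb5* (r 0.72, rho 0.78), *Zbtb37* (0.68, 0.70) and *Ctxn1* (0.68, 0.65). *Hsd11b1* was most like *Fam32a* (r 0.75, rho 0.69), *Cdc73* (0.74, 0.65) and *Sdc3* (0.72, 0.71). *Fkbp5* was most like *Capn7* (r 0.78, rho 0.53), *Tnfsf13* (0.77, 0.22) and *Grpel2* (0.77, 0.69). *Tsc22d3* was most like *Rilpl1* (r 0.89, rho 0.62), *Zfp362* (0.86, 0.59) and *Syt14* (0.84, 0.45). *Sgk1* was most like *Washc3* (r 0.87, rho 0.80), *Impa1* (0.86, 0.59) and *Prpf40b* (0.80, 0.52). *Zbtb16* was most like *Hdac2* (r 0.87, rho 0.66), *Dock6* (0.83, 0.72) and *Slit2* (0.81, 0.41). None of these 21 genes is in a list of corticosteroid genes used here. All points share library depth, and many of these genes have libraries at 0.

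The other genes of the pathway were taken as lists by role. None passed the adjusted threshold in any comparison by edgeR with the filter used here. The genes of the lists were not read under the other tools and settings. The 32 other glucocorticoid-induced genes were led in level by *Glul*, glutamine synthetase, at a mean of 1207 CPM (804 to 1684), and *Txnip*, which encodes a thioredoxin inhibitor, at 546 CPM (292 to 910). In the sham + v group 21 of the 32 were above the OVX + v group and 11 below, with a median log2 fold change of 0.27 against -0.02 for all genes, of which 49.0% were above. For the OVX + E2 group it was 17 above and 14 below, with a median of 0.07 against -0.06 (0.09 with 2 genes without counts in a group at their bound), and for the OVX + RAL group 17 and 14, with 0.04 against -0.03. Of all genes, 47.5% and 48.3% were above in these 2 comparisons. The 3 comparisons of each list share the OVX + v libraries, so that their tallies are not independent of each other. At an unadjusted p of 0.05 the numbers were 4 of 32, 7 of 31 and 3 of 31 genes, against 12.5%, 13.9% and 12.1% of all genes tested. They include 1, 2 and 2 genes with no count in one of the groups, which passed the filter only through the other group. The same shares are set against such counts in the lists that follow. They hold for the filter used here, under which genes counted in few libraries also passed, and were far lower with the default filter of edgeR, under which the lists were not counted.

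The smallest p of this list belonged to *Glul* in the OVX + E2 group, with 1449 ± 86.7 CPM against 932 ± 92.9 CPM in the OVX + v group (SD, n = 5). *Glul* had a log2 fold change of 0.64 (SE 0.195, adjusted p = 0.351, edgeR). *Mt2*, which encodes a metallothionein induced by glucocorticoids and metals, had 315 ± 139 CPM in the OVX + v group and 511 ± 205, 595 ± 205 and 509.7 ± 198 CPM in the sham + v, the OVX + E2 and the OVX + RAL groups (SD, n = 5). *Mt2* had log2 fold changes of 0.70 (SE 0.290), 0.92 (SE 0.309) and 0.69 (SE 0.288) in these groups, with adjusted p of 0.363, 0.351 and 0.402 (edgeR). The 3 comparisons share the OVX + v libraries. *Ddit4*, a stress-induced inhibitor of mTOR signalling, had 158 ± 103 CPM in the sham + v group and 64.4 ± 18.2 CPM in the OVX + v group (SD, n = 5), a log2 fold change of 1.30 (SE 0.517, adjusted p = 0.363, edgeR). *Lcn2* had 1 count in 1 sham + v library, counts of 6 and 32 in 2 OVX + v libraries and 30 in 1 OVX + E2 library, and none in the OVX + RAL group.

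The 13 chaperones that hold the receptor were the most abundant list, and all had at least 10 CPM. *Hsp90ab1* had a mean of 3796 CPM (2842 to 5861) and *Hsp90aa1* 1513 CPM (1019 to 2366), both forms of Hsp90. Against the OVX + v group, 9 of 13 had a log2 fold change below 0 in the sham + v group, 10 with OVX + E2 and 10 with OVX + RAL, with medians of -0.13, -0.24 and -0.26, against -0.02, -0.06 and -0.03 for all genes, and 1, 0 and 0 genes at an unadjusted p of 0.05. *Hsp90aa1* had 1260.4 ± 278 CPM in the sham + v group and 1663 ± 214 CPM in the OVX + v group (SD, n = 5), with a log2 fold change of -0.40 (SE 0.184, adjusted p = 0.363, edgeR). *Hspa4* had a log2 fold change of -0.69 (SE 0.380) in the OVX + E2 group and -0.53 (SE 0.310) in the OVX + RAL group, with adjusted p of 0.443 and 0.633 (edgeR). *Hspa8*, *Hsp90ab1* and *Dnaja1*, the other chaperones with the smallest p, had log2 fold changes of -0.31, -0.17 and -0.42 in the sham + v, the OVX + E2 and the OVX + RAL groups.

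Of the 12 coregulators, *Ncor1*, a corepressor, had a mean of 224 CPM (121 to 350.1) and *Crebbp*, a coactivator with acetyltransferase activity, 114 CPM (22.0 to 293). In the sham + v group 5 were above and 7 below the OVX + v group, and in the OVX + E2 and the OVX + RAL groups 7 and 5, with medians of -0.19, 0.51 and 0.16. At an unadjusted p of 0.05 there were 1, 0 and 2 genes. *Med1*, the Mediator subunit that binds nuclear receptors, had 13.9 ± 8.21 CPM in the OVX + v group, 81.7 ± 35.7 CPM in the sham + v group and 83.0 ± 39.5 CPM in the OVX + RAL group (SD, n = 5). *Med1* had log2 fold changes of 2.55 (SE 0.962, adjusted p = 0.363) and 2.58 (SE 0.823, adjusted p = 0.402) by edgeR, and 1.42 in the OVX + E2 group (unadjusted p = 0.392). *Crebbp* had a log2 fold change of 1.01 in the OVX + E2 group (SE 0.623, adjusted p = 0.610) and 1.20 for OVX + RAL (SE 0.445, adjusted p = 0.402) by edgeR. *Smarca4* was at -0.67 in the sham + v group and *Med14* at 3.07 in the OVX + E2 group (SE 2.31), with 2 libraries at 0 in both groups.

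Of the 12 genes of corticosteroid supply, 3 had a mean of 10 CPM or more. *Cyp11a1*, *Cyp11b1*, *Cyp11b2* and *Cyp21a1*, the enzymes that make corticosteroids in the adrenal gland, were not counted in any library. *Hsd11b2*, which inactivates glucocorticoids and thereby protects the mineralocorticoid receptor, had 15 counts in 1 OVX + v library and none elsewhere. *Star*, the cholesterol carrier of steroid synthesis, had counts of 62 and 52 in 2 sham + v libraries, 136 and 1 in 2 OVX + E2 libraries and 1 and 66 in 2 OVX + RAL libraries, and none in the OVX + v group. *Akr1d1* had 22 counts in 1 OVX + v library and 4 in 1 OVX + RAL library. *Abcb1a*, a drug efflux pump that carries steroids, had the highest mean of this list, 31.5 CPM (0 to 115), followed by *H6pd*, the supplier of cofactor for the *Hsd11b1* enzyme, with 22.7 CPM (0 to 64.9). The numbers above and below the OVX + v group were 2 and 5, 3 and 4, and 5 and 3 in the sham + v, the OVX + E2 and the OVX + RAL groups. Of the genes tested, 4, 4 and 3 had a group with every library at 0. These passed the filter only through the other group, which fixed their direction in the tally. All genes of this list with an unadjusted p under 0.05 were among these, so their number is not given.

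In the mineralocorticoid and Sgk1 axis, *Ndrg2* had a mean of 717 CPM (323 to 1119). *Scnn1g*, the gamma subunit of the epithelial sodium channel, and *Sgk2* had no count. Of the 12 genes tested, 6, 5 and 3 were above the OVX + v group in the sham + v, the OVX + E2 and the OVX + RAL groups, with medians of -0.05, -0.07 and -0.21 and 0, 1 and 0 at an unadjusted p of 0.05. *Nedd4l*, the ubiquitin ligase that Sgk1 restrains, had 172 ± 58.8 CPM in the sham + v group and 92.8 ± 26.4 CPM in the OVX + v group (SD, n = 5), a log2 fold change of 0.89 (SE 0.467, adjusted p = 0.450, edgeR). *Ndrg1*, a substrate of Sgk1, had a log2 fold change of 0.73 in the OVX + E2 group (SE 0.397, adjusted p = 0.439, edgeR). *Scnn1b*, the beta subunit of the channel, had 10.1 ± 9.05 CPM in the OVX + RAL group and 33.2 ± 20.03 CPM in the OVX + v group (SD, n = 5), a log2 fold change of -1.71 (SE 1.39, adjusted p = 0.9999, edgeR), and *Wnk1* was at -0.41.

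Of the 8 relatives of the 7 genes, *Zbtb20* had the highest mean, 1968 CPM (1197 to 2717), followed by *Fkbp4*, the co-chaperone counterpart of *Fkbp5* and also 1 of the 13 chaperones, with 377 CPM (231 to 654). In the sham + v, the OVX + E2 and the OVX + RAL groups 2, 3 and 2 were above and 6, 5 and 6 below the OVX + v group, with medians of -0.17, -0.39 (-0.38 with 1 gene that had no count in the OVX + E2 group at its bound) and -0.25 and 3, 1 and 0 at an unadjusted p of 0.05, of which 2, 1 and 0 had no count in one of the groups. *Zbtb20* had a log2 fold change of -0.32 in the OVX + RAL group (SE 0.187, adjusted p = 0.612, edgeR) and *Fkbp1a* -0.54 in the OVX + E2 group (SE 0.404, adjusted p = 0.839, edgeR). *Pgr*, the progesterone receptor gene, had 48, 85 and 20 counts in 3 OVX + v libraries, 3, 1 and 9 in 3 OVX + E2 libraries, 16, 1 and 27 in 3 OVX + RAL libraries, and none in the sham + v group.

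**Figure D5:**
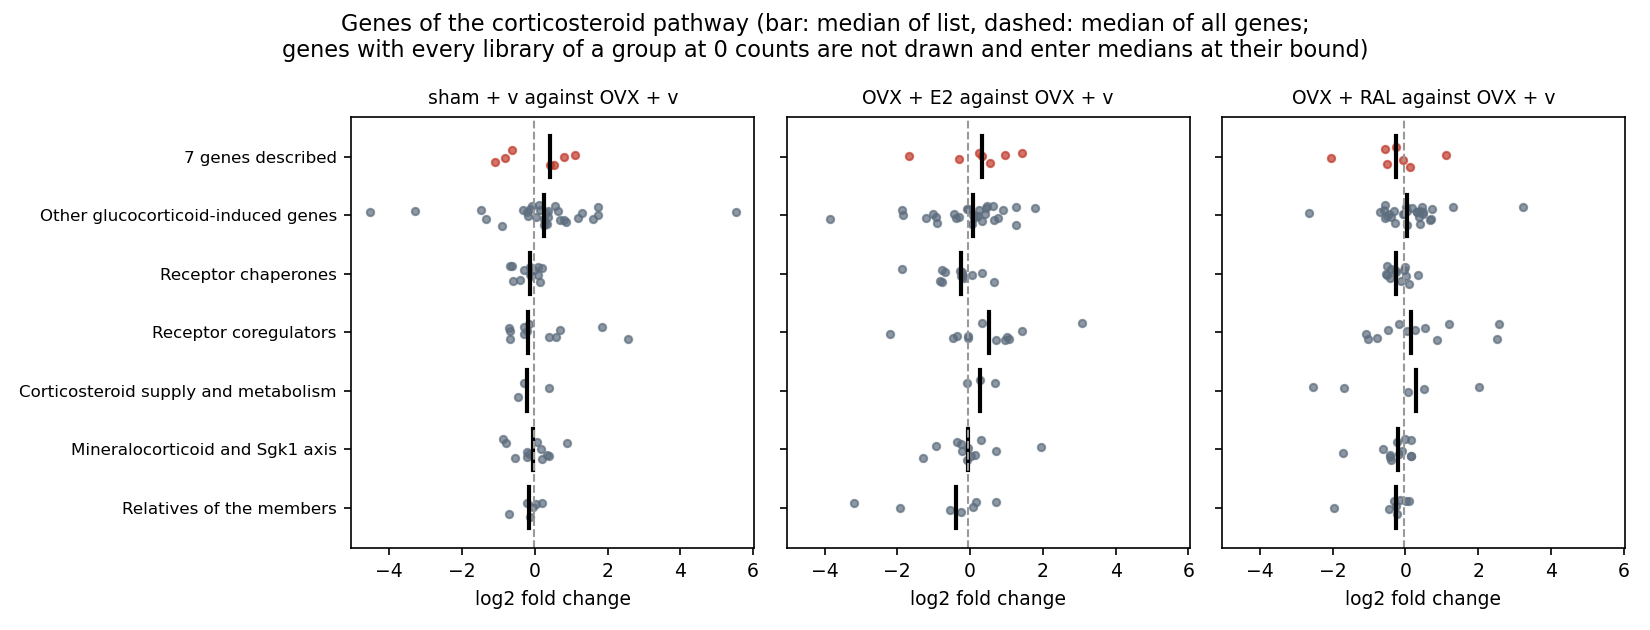
Log2 fold changes against the OVX + v group (horizontal axes) of the 7 genes (red) and 6 lists of pathway genes (grey), 1 point per gene, with the list median as a bar and the median of all genes as a dashed line. Genes with every library of a group at 0 are not drawn and enter the medians at their bound from 3 counts per library. The list medians lie between -0.38 and 0.51, and no gene passed an adjusted p of 0.05 by edgeR.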

How the data were processed

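Utricle RNA of 20 libraries was analysed from the deposited tables. Conditions were taken from the labels, and replicates carry the library numbers 1 to 20 given there. According to the study's methods, the authors trimmed the reads of a 3′ mRNA library kit, mapped them to GRCm39 and counted them in CLC Genomics Workbench, leaving the mapping at its defaults. The version of the program, and what its defaults were for strand and for reads matching several genes, are not given in the sources used here. The deposited total counts are raw counts of reads per gene. As deposited, the CPM, RPKM and TPM columns hold normalized signal. The authors multiplied CPM by a library factor of 0.933 to 1.08, and the other two columns equal plain CPM. The authors' deposited log2 fold changes and p-values hold their own comparisons and were not used. The tables hold 0 columns of other samples, and 0 of 40 replicate pairs had identical counts.

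CPM used the sum of counts of a library. Levels are per transcript end and carry no length correction, as 1 transcript gives its reads near its 3′ end. For each pair of groups, edgeR 4.0.16 (R 4.3.3) was fitted to the 10 libraries concerned and its quasi-likelihood test was used, with the total count as library size, on genes with at least 10 counts summed, with Benjamini-Hochberg adjustment over all genes and a threshold of 0.05. A test of any difference used all 20 libraries. SE is the size of the log2 fold change over the square root of F. Depths are given in the report, floors are 3 counts, and both cover counting error only. Correlations used log2(CPM + 1) with 100000 permutations. Alternatives were TMM, DESeq2 1.42.0, no filter, the default filter of edgeR, limma 3.58.1 on log2(CPM + 1) and log2(CPM + 0.1), robust dispersion, a fit of all 4 groups, and leaving out each library. The tests were tested on simulated data, where at the dispersion of these libraries most genes with a known change were missed and some genes without one were called. Sequences were read from the GRCm39 genome with the GENCODE annotation, with Python 3.11.15.

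The 7 genes and the lists were chosen with earlier results of these data known. Named are the 7 genes, the 3 genes most like each, and in each list the 2 genes with the highest mean and the 2 with the smallest p in each comparison with the OVX + v group, unless a gene passed the threshold. Values of 2 genes of the lists are not reported here.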

Additional observations from a re-analysis of the deposited data

Results flagged for a closer look

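For each of the 7 genes, the highest and the lowest library of each group were set against the other 4 by the ratio of the gap to the range, with Dixon's 95% critical value of 0.71. Of 28 groups, 2 had a library past it. Chance gives about 1.4 for normally distributed values, but 21 of the 140 values here were 0, so this figure is only a rough guide. *Nr3c1* had 137.1 CPM in OVX + E2 replicate 13, and the next library of the group had 35.5 CPM. *Nr3c2* had 23.7 CPM in OVX + RAL replicate 17, and the other 4 libraries of the group were at 0. With these tied, any count in replicate 17 would have passed the critical value.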

How the results depend on the processing

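None of the 7 genes passed the threshold in any of the 504 fold changes and 189 F values computed under the alternatives, of which the lowest adjusted p were 0.459 (*Nr3c2* between OVX + E2 and OVX + RAL without OVX + RAL replicate 17) and 0.189. Both come from fits without the only OVX + RAL library with counts of *Nr3c2*, a choice that sets that group to 0. Of the 504 fold changes, 465 kept their direction and 39 turned, 21 of them with a library left out. The fold changes of all 7 genes kept their direction with TMM, DESeq2, both filters, robust dispersion and the fit of all 4 groups. TMM moved the median log2 fold change of all genes from -0.06 to -0.17 for OVX + E2 against OVX + v, and from -0.01 to -0.16 for OVX + E2 against OVX + RAL. The cause of the turns below was not tested.

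With limma and a pseudocount of 1 or 0.1, respectively, the values that turned were, for sham + v against OVX + v, -0.60 and -0.82 for *Nr3c1* and -0.50 and -1.16 for *Zbtb16*. For OVX + E2 against OVX + v they were -0.86 and -2.02 for *Tsc22d3*, -0.29 and -0.92 for *Zbtb16*, and -0.0569 for *Nr3c2* with 0.1 only. For OVX + RAL against OVX + v they were 0.66 and 0.81 for *Tsc22d3* and 0.0864 and 0.0955 for *Zbtb16*. For OVX + E2 against OVX + RAL they were -1.53 and -2.83 for *Tsc22d3*, -0.38 and -1.02 for *Zbtb16*, and -0.54 for *Fkbp5* with 0.1 only. Other values kept their direction and moved by over 1.5 times with at least 1 of the pseudocounts. For sham + v they were -1.48 and -2.67 for *Nr3c2*, -0.90 and -0.99 for *Hsd11b1*, 1.47 and 2.14 for *Fkbp5* and 1.57 and 1.74 for *Tsc22d3*. For OVX + E2 they were -1.19 and -1.39 for *Nr3c1*, 0.16 and 0.16 for *Hsd11b1*, 1.78 and 2.46 for *Fkbp5*, -2.32 and -3.10 for *Sgk1*, and 0.43 for *Nr3c2* with 1. For OVX + RAL they were -1.26 and -1.92 for *Nr3c1*, -2.81 and -5.26 for *Nr3c2* and 1.76 and 3.0 for *Fkbp5*, each group against OVX + v. For OVX + E2 against OVX + RAL they were 0.068 and 0.54 for *Nr3c1*, 3.24 and 5.20 for *Nr3c2*, -2.46 and -3.24 for *Sgk1*, and 0.013 for *Fkbp5* with 1.

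With each library left out in turn, values for sham + v against OVX + v ranged from -0.14 to 0.75 for *Nr3c1* and from -0.21 to 1.13 for *Zbtb16*, both lowest without sham + v replicate 4. For OVX + E2 against OVX + v they ranged from -1.57 to 0.0044 for *Nr3c1*, from -0.0661 to 0.58 for *Hsd11b1*, and from -0.91 (without OVX + E2 replicate 11) to 0.88 for *Tsc22d3*. For OVX + RAL against OVX + v they ranged from -0.22 to 0.64 for *Sgk1*, from -0.57 to 0.30 for *Tsc22d3* and from -0.29 to 0.28 for *Zbtb16*. For OVX + E2 against OVX + RAL they ranged from -1.06 (without OVX + E2 replicate 13) to 0.83 for *Nr3c1*, from -0.0424 to 0.82 for *Fkbp5* and from -0.65 to 0.91 for *Tsc22d3*. Values that kept their direction also moved. Those of *Hsd11b1* ranged from -1.27 to -0.31 for sham + v and from -1.20 to -0.24 for OVX + RAL, each against OVX + v. *Sgk1* and *Tsc22d3* ranged from -1.22 to -0.31 and from 0.22 to 1.09 for sham + v, *Nr3c1* from -1.14 to -0.19 for OVX + RAL, and *Zbtb16* from 0.12 to 0.89 for OVX + E2, each against OVX + v.

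The number of all genes past the threshold moved for sham + v against OVX + v from 2 to 1 with TMM, 12 with DESeq2, 4 with limma on log2(CPM + 1), and 0 with limma on log2(CPM + 0.1), the default filter of edgeR and robust dispersion (1 to 10 with a library left out). Between OVX + E2 and OVX + v it moved from 8 to 38 with DESeq2, 1 with the default filter, 3 with limma on log2(CPM + 0.1) and 4 with robust dispersion (6 to 17 with a library left out). For OVX + RAL against OVX + v it moved from 4 to 0 with the default filter, limma on log2(CPM + 0.1) and robust dispersion (3 to 11). Between OVX + E2 and OVX + RAL it moved from 10 to 42 with DESeq2, 0 with the default filter, 2 with limma on log2(CPM + 0.1), 6 with robust dispersion and 16 in the fit of all 4 groups (8 to 16). For any difference it moved from 21 to 2 with DESeq2, 1 with the default filter, 0 with either limma fit and 5 with robust dispersion (17 to 28).

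Of 63 values of r under other settings 5 turned, and the lowest adjusted p was 0.748. With log2(CPM + 0.1), r was -0.00809 for *Nr3c1* and *Hsd11b1* and 0.12 for *Nr3c2* and *Sgk1*. As deviations from the group means, r was -0.0025 for *Nr3c1* and *Tsc22d3*, 0.26 for *Nr3c2* and *Sgk1*, and 0.011 for *Hsd11b1* and *Sgk1*.

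No paired analysis was possible because the groups share no replicate numbers. At these depths a member with no count in a library may still have had up to 1.44 to 2.67 CPM, and the 95% intervals of the members' fold changes span 2.22 to 7.87 on the log2 scale.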
